A study of Mus musculus with 3 samples.

Results

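The 66 genes described here encode mitochondrial ribosomal proteins and the translocases that carry proteins into mitochondria. They are the genes whose single symbol in the platform annotation starts with Mrpl, Mrps, Timm or Tomm, out of 7984 genes with 1 symbol on the array. The mitochondrial ribosome supplied 46 of them (29 Mrpl and 17 Mrps genes) and the import translocases 20 (13 Timm and 7 Tomm genes), on 144 probes in all. Each of 3 two-colour arrays carried the same pair of bought RNAs: total RNA of mouse liver in Cy5 and Universal Mouse Reference RNA (UMRR), a mixture of RNAs from mouse cell lines that is used as a common reference, in Cy3. Both were amplified as cRNA in a single round. The labels give neither the strain nor the age of the mice behind the liver RNA, and the dyes were never swapped. The 3 arrays are therefore repeats of 1 pair of RNAs. A p-value below speaks of repeat arrays, whose spread may be technical, and not of livers. With liver always in Cy5, a dye bias of a probe would repeat on every array. It cannot be told apart from a difference between liver and UMRR.

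A value is a log ratio, read here as log2 of liver over UMRR, so that 0 is a ratio of 1 and 1 is 2-fold higher in liver. Neither base nor direction is stated with the values. Natural logs would make every log2 value 1.44 times larger. The direction rests on the 4 measured hepatocyte secretory genes, whose means lay between 4.01 and 5.17. Of 10 pancreatic acinar genes, 9 were also higher in the liver channel, from 0.53 for Amy2a5 to 5.55 for Reg2. Cel stood at 0.22 and did not pass, and the median of all 10 was 4.09. Of 6 erythroid genes on the array, 5 were measured. The globin genes Hbb-bh1, Hba-a2 and Hba-a1 were higher, from 3.09 to 4.94, and Epor (0.22) and Slc4a1 (0.28) did not pass. The part of these other cells in the values below was not tested. An exact 0 was read as no ratio. Across the 51 measured members the SD of the difference was 0.16 between arrays 2 and 3. It was 0.33 between arrays 1 and 2, and 0.30 between arrays 1 and 3, so array 1 stood apart. In bulk RNA, fewer cells of a type and less RNA per cell cannot be told apart.

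Mitochondria keep a small genome whose messages code for core subunits of the respiratory chain and of ATP synthase, and translate them on a ribosome of their own. The proteins of that ribosome, like nearly all mitochondrial proteins, are coded in the nucleus, made in the cytosol and imported. Precursors cross the outer membrane through the TOM complex, in which receptors such as Tomm20, Tomm22 and Tomm70a pass them to the channel Tomm40. From there the TIM23 complex takes proteins with a presequence into the matrix, small Tim chaperones escort hydrophobic proteins across the space between the membranes, and the TIM22 complex inserts carrier proteins into the inner membrane. Hepatocytes are rich in mitochondria.

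Of the 66 genes, 51 had at least 1 probe with a ratio on all 3 arrays (77.3%, against 69.1% of all genes), and the counts below are over these 51. Liver was higher for 29 and lower for 4 at an adjusted p of 0.05, and 18 did not pass. Over all 5520 measured genes 64.0% passed, 30.1% higher and 33.9% lower in liver. The 51 genes had a median log2 ratio of 0.44, beside -0.028 over all measured genes. They lay above 0 on every array for 35 genes and below 0 on every array for 7, against backgrounds of 37.9% and 41.6%. Most of the differences were small. Mrpl12 and Mrps24 alone were at least 2-fold higher on every array and no member was at least 2-fold lower on every array, where the backgrounds were 9.46% and 9.53%.

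Both the ribosome and the translocases had medians on the liver side. In the ribosome 20 of 37 measured genes were higher and 3 lower, with a median of 0.37. In the translocases 9 of 14 were higher and 1 lower, with a median of 0.52. The ribosome's median was 0.38, 0.47 and 0.40 on arrays 1, 2 and 3, and that of the translocases 0.53, 0.46 and 0.52. The difference, ribosome minus translocases, was -0.14 on array 1, 0.0060 on array 2 and -0.13 on array 3. It thus did not keep 1 sign, and these data do not order the groups. The counts were as large without array 1, where 22 ribosomal genes were higher and 3 lower, and 10 translocase genes were higher and 1 lower. Without array 3, 15 ribosomal and 6 translocase genes were higher. A single ribosomal gene was lower when array 2 or array 3 was left out. Over all 5520 measured genes, 3535 passed with all arrays, 4004 without array 1, 2914 without array 2 and 2755 without array 3.

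**Figure D1:**
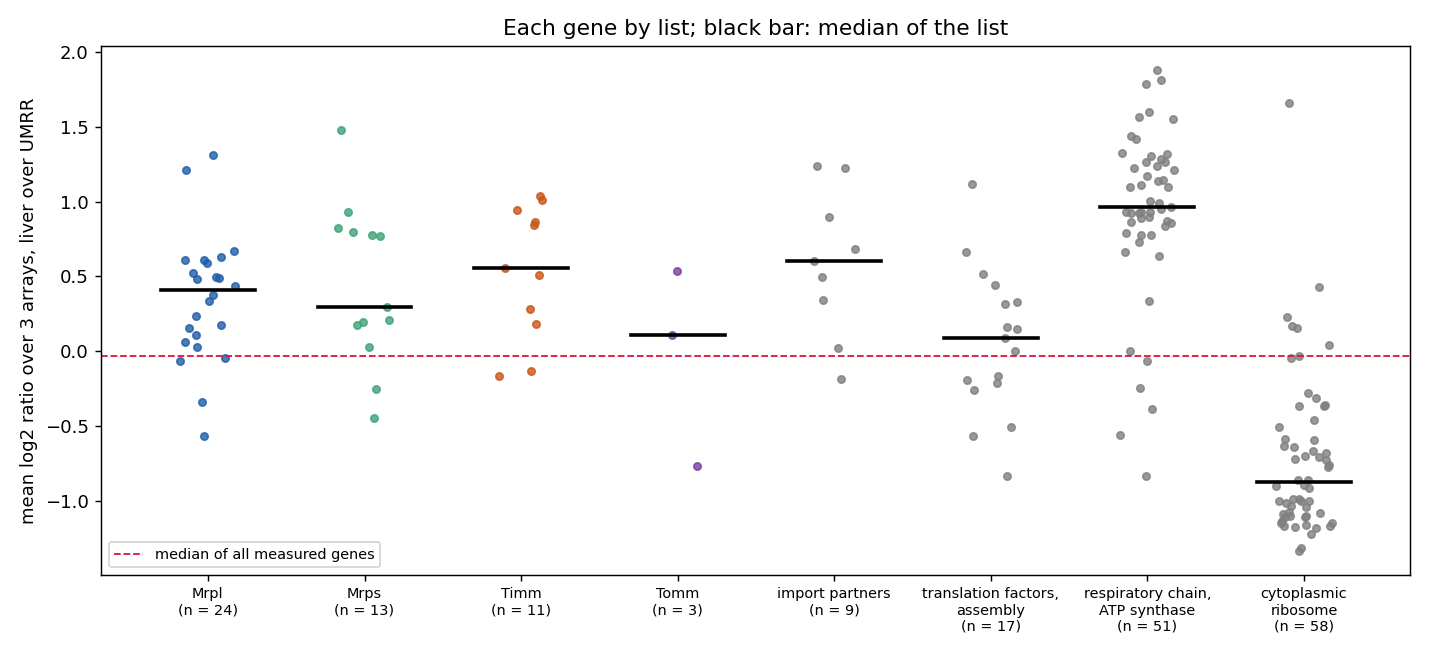
Mean log2 ratio over 3 arrays of each measured gene (points), by list, with the median of each list as a black bar and the median of all 5520 measured genes (-0.028) as a dashed line. The Mrpl, Mrps and Timm medians (0.41, 0.29 and 0.56) lie between those of the respiratory chain (0.96) and of the cytoplasmic ribosome (-0.87).

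In the large subunit, which forms peptide bonds, liver was higher for 14 of 24 measured genes and lower for 2, and the median was 0.41. Without array 3, the number higher was 9. Mrpl12, the counterpart of the bacterial stalk protein L7/L12 that recruits translation factors, was the highest. Its log2 ratios were 1.19, 1.36 and 1.38 on arrays 1, 2 and 3, or 2.48-fold (mean 1.31 ± 0.10, SD, n = 3, adjusted p = 6.77e-05). All arrays lay well to the liver side. The other proteins of the stalk and its base did not share this height. Mrpl10, which anchors the stalk, stood at 0.38, 0.60 and 0.58 (0.52 ± 0.13, adjusted p = 0.00417). Mrpl11, at the base of the stalk, stood at -0.11, -0.088 and 0.056 and did not pass (adjusted p = 0.690). The values of Mrpl10, Mrpl11 and Mrpl12 did not overlap. Mrpl10 and Mrpl11 were measured by 1 probe each and Mrpl12 by 2.

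Mrpl24, the counterpart of a bacterial protein that starts assembly of the large subunit, followed Mrpl12 at 1.38, 0.996 and 1.26 (1.21 ± 0.20, 2.32-fold, adjusted p = 0.000169). Next, by averaged probes, came Mrpl39, a protein specific to mitochondria, at 0.52, 0.63 and 0.87 (0.67 ± 0.18, adjusted p = 0.00193). Mrpl2, which lies close to the catalytic centre, stood at 0.38, 0.70 and 0.79 (0.63 ± 0.21, adjusted p = 0.00351). The values of Mrpl12 and Mrpl24 did not overlap with those of any other gene of the subunit when probes were averaged. With the median probe of each gene Mrpl24 stood at 1.30, 0.75 and 1.00 and overlapped with others, among them Mrpl15 and Mrpl17. By averaged probes, Mrpl39, Mrpl2, Mrpl15, Mrpl16 and Mrpl17 lay between 0.59 and 0.67 and overlapped. With the median probe, the means of Mrpl15 (0.95) and Mrpl17 (0.84) were above that of Mrpl39. The other 7 genes that were higher, Mrpl10, Mrpl40, Mrpl44, Mrpl57, Mrpl51, Mrpl37 and Mrpl32, had means from 0.34 to 0.52.

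Mrpl33 and Mrpl3 were lower in liver. Mrpl33, a short protein of the subunit, stood at -0.48, -0.73 and -0.50 (-0.57 ± 0.14, 1.48-fold lower, adjusted p = 0.00311). Mrpl3, which reaches toward the catalytic centre, stood at -0.29, -0.34 and -0.39 (-0.34 ± 0.049, adjusted p = 0.0170). Both were on the UMRR side on each array, on 1 measured probe each. The other probe of Mrpl3, 17595, had a ratio on array 3 alone, and stood there at 1.24, where the measured probe stood at -0.39. Mrpl3 no longer passed when array 2 was left out (adjusted p = 0.0955) or array 3 (adjusted p = 0.167). The 8 genes that did not pass, Mrpl1, Mrpl4, Mrpl11, Mrpl18, Mrpl38, Mrpl45, Mrpl49 and Mrpl54, had means from -0.061 to 0.24. Mrpl49 stood at -0.26, -0.047 and 0.12 (adjusted p = 0.649).

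**Figure D2:**
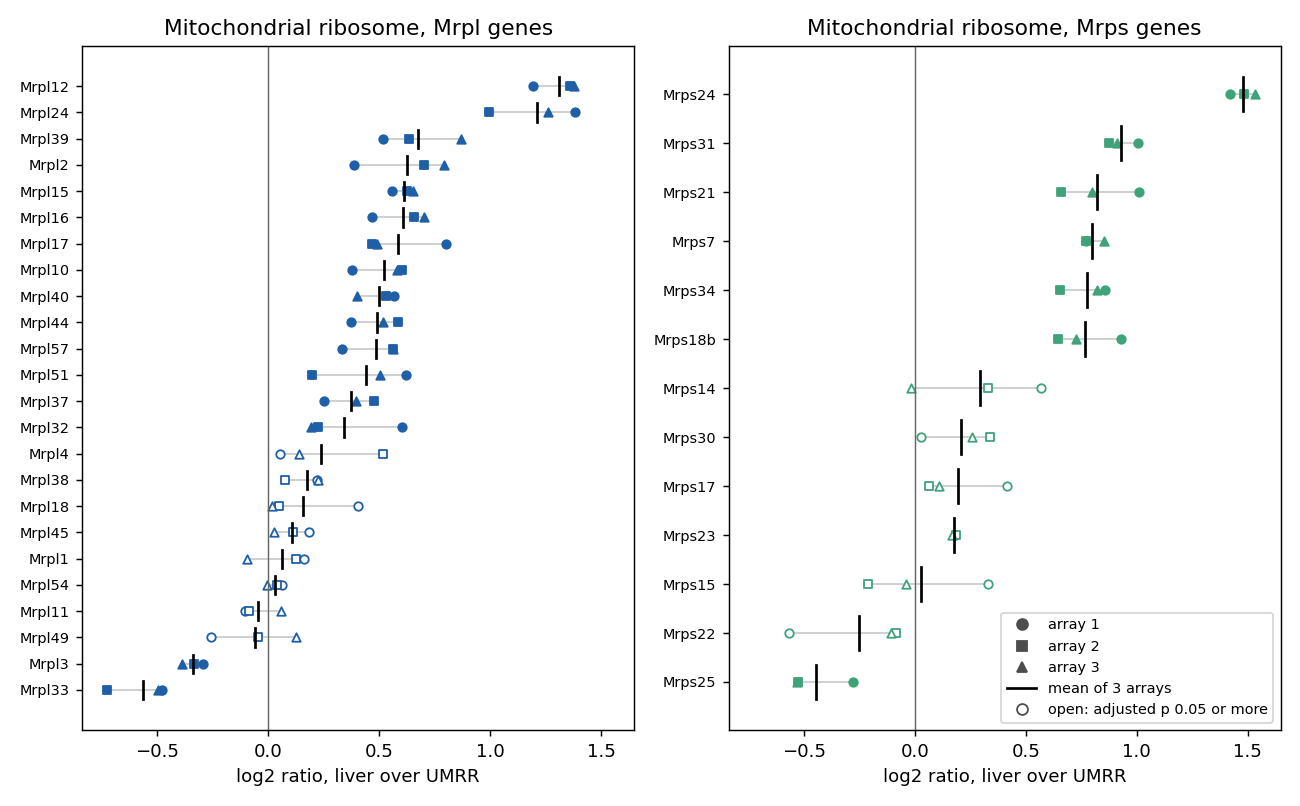
Log2 ratio of liver over UMRR on each array (circle, square and triangle for arrays 1, 2 and 3) for the 24 Mrpl and 13 Mrps genes measured on all arrays, ordered by the mean (black bar). Filled symbols mark genes past the test; Mrpl12, Mrpl24 and Mrps24 stand to the right of the other members of their subunits.

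In the small subunit, which reads the message, liver was higher for 6 of 13 measured genes and lower for 1, and the median was 0.29. Mrps24, the counterpart of the bacterial protein S3 at the entry of the message, had the highest ratio of all members. It stood at 1.42, 1.49 and 1.54, or 2.79-fold (1.48 ± 0.058, SD, n = 3, adjusted p = 3.41e-05). Its lowest array exceeded the highest array of every other gene of the subunit. The other 5 genes that were higher, Mrps31 (0.93 ± 0.068), Mrps21 (0.82 ± 0.18), Mrps7 (0.80 ± 0.047), Mrps34 (0.78 ± 0.11) and Mrps18b (0.77 ± 0.15), lay together, with single values between 0.64 and 1.01. Their adjusted p-values lay between 0.000238 for Mrps31 and 0.000858 for Mrps18b. Mrps31 and Mrps34 are specific to mitochondria, while Mrps7 and Mrps21 have bacterial counterparts.

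A step then separated these 6 genes from the others. The next was Mrps14, whose values of 0.57, 0.33 and -0.017 changed sign between arrays (0.29 ± 0.29, adjusted p = 0.0957). Mrps30, Mrps17, Mrps23 and Mrps15 had means from 0.027 to 0.21 and did not pass. Mrps30 carries a small-subunit name, but its protein sits in the large subunit. Mrps23 repeated most closely of all members, at 0.18, 0.19 and 0.17 (adjusted p = 0.128), and passed without moderation of the variance (adjusted p = 0.0153). Mrps15 stood at 0.33, -0.21 and -0.040 (adjusted p = 0.867), with array 1 alone above 0.

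At the low end were Mrps22 and Mrps25, both specific to mitochondria and measured by 1 probe each. Mrps25 was lower in liver at -0.28, -0.53 and -0.53 (-0.45 ± 0.14, adjusted p = 0.00897), a call that ended when array 2 was left out (adjusted p = 0.0629) or array 3 (adjusted p = 0.0922). Mrps22 stood at -0.57, -0.083 and -0.11 and did not pass (adjusted p = 0.128). Its low mean rested on array 1.

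The median of the large subunit minus that of the small subunit was -0.20 on array 1, and 0.13 and 0.14 on arrays 2 and 3, so the subunits had no order that held on all arrays. Proteins with a bacterial counterpart were coded by 21 of the 37 measured ribosomal genes. Of these 12 were higher and 2 lower, with a median of 0.52. Of the 16 genes for proteins specific to mitochondria 8 were higher and 1 lower, with a median of 0.29. The 3 genes with the highest ratios, Mrps24, Mrpl12 and Mrpl24, are in the first class, and so are Mrpl33 and Mrpl3. The classes overlapped over most of their range, from -0.57 to 1.48 and from -0.45 to 0.93.

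The import genes were counted by membrane. Of 11 measured Timm genes 8 were higher in liver and 0 lower; their median was 0.56, from -0.16 for Timm9 to 1.04 for Timm17b. Of 3 measured Tomm genes Tomm70a was higher, Tomm22 was lower and Tomm7 did not pass. With 3 genes on the outer membrane side, the difference between the classes was not tested.

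The small Tim chaperones, which form rings in the space between the membranes, were higher for 4 of 5 measured genes. Timm8a1, whose human counterpart is lost in deafness-dystonia syndrome, stood at 1.10, 0.96 and 0.96, or 2.01-fold (1.01 ± 0.081, SD, n = 3, adjusted p = 0.000179). Timm10 stood at 0.94, 0.84 and 0.82 (0.86 ± 0.063, adjusted p = 0.000321). Timm10b, which docks the chaperones on the TIM22 complex, stood at 0.71, 1.12 and 0.71 (0.85 ± 0.24, adjusted p = 0.00116). All values of these 3 genes lay between 0.71 and 1.12. Timm9, the partner of Timm10 in 1 kind of ring, did not pass: its values were -0.022, -0.38 and -0.095 (-0.16 ± 0.19, adjusted p = 0.227). Timm9 lay below Timm10 on all 3 arrays, with no overlap. Timm8a1, Timm10b and Timm9 were measured by 1 probe each.

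Timm13, which forms a ring with Timm8a1, depended on the array. It stood at -0.0035 on array 1 and at 0.85 and 0.83 on arrays 2 and 3 (0.56 ± 0.49, the widest SD of all members, adjusted p = 0.0365). All 3 of its probes were lowest on array 1. It no longer passed when array 2 was left out (adjusted p = 0.138) or array 3 (adjusted p = 0.147).

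Of the 4 genes of the TIM23 complex, the route into the matrix, 3 were higher. Timm17b, a channel subunit, had the highest mean of the import genes, with values of 0.64, 1.29 and 1.18 (1.04 ± 0.35, 2.05-fold, adjusted p = 0.00115). On array 1 Timm8a1 was higher, at 1.10. Timm23, the other channel subunit, stood at 0.70, 0.22 and 0.60 (0.51 ± 0.25, adjusted p = 0.0115) and lost its call without array 3 (adjusted p = 0.0742). Timm21, which links the complex to the respiratory chain, stood at 0.42, 0.18 and 0.24 (0.28 ± 0.13, adjusted p = 0.0457). Timm21 had the highest adjusted p of the called members. Its call ended when array 2 (adjusted p = 0.107) or array 3 (adjusted p = 0.196) was left out, and when the arrays were scaled to one spread (adjusted p = 0.0502). Timm50, the receptor of the complex, stood at -0.35 on array 1 and at 0.47 and 0.43 on arrays 2 and 3. It did not pass with all arrays (0.18 ± 0.46, adjusted p = 0.394) and passed without array 1 (0.45, adjusted p = 0.00132).

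In the TIM22 complex the channel and an accessory subunit parted. Timm29, the accessory subunit, was higher at 0.90, 0.94 and 1.00 (0.95 ± 0.052, adjusted p = 0.000212). Timm22, the channel, stood at -0.056, -0.19 and -0.15 and did not pass (-0.13 ± 0.068, adjusted p = 0.253). The values of Timm29 and Timm22 were far apart on each array. Timm29 was measured by 1 probe, and the 2 measured probes of Timm22 had means of 0.015 and -0.28.

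The measured TOM receptors went opposite ways. Tomm22, the central receptor that also holds the complex together, was the only import gene lower in liver, at -1.14, -0.60 and -0.56, or 1.70-fold (-0.76 ± 0.32, SD, n = 3, adjusted p = 0.00355). Its mean was the lowest of all 51 measured members, though on array 2 Mrpl33 was lower, at -0.73. Tomm70a, the receptor for carrier proteins, was higher at 0.71, 0.45 and 0.45 (0.54 ± 0.15, adjusted p = 0.00424). Both kept their sign on each array. Neither passed without moderation of the variance (adjusted p = 0.0981 for Tomm22 and 0.0597 for Tomm70a). Tomm7, a small subunit of the complex, stood at 0.28, 0.068 and -0.032 and did not pass (adjusted p = 0.402).

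**Figure D3:**
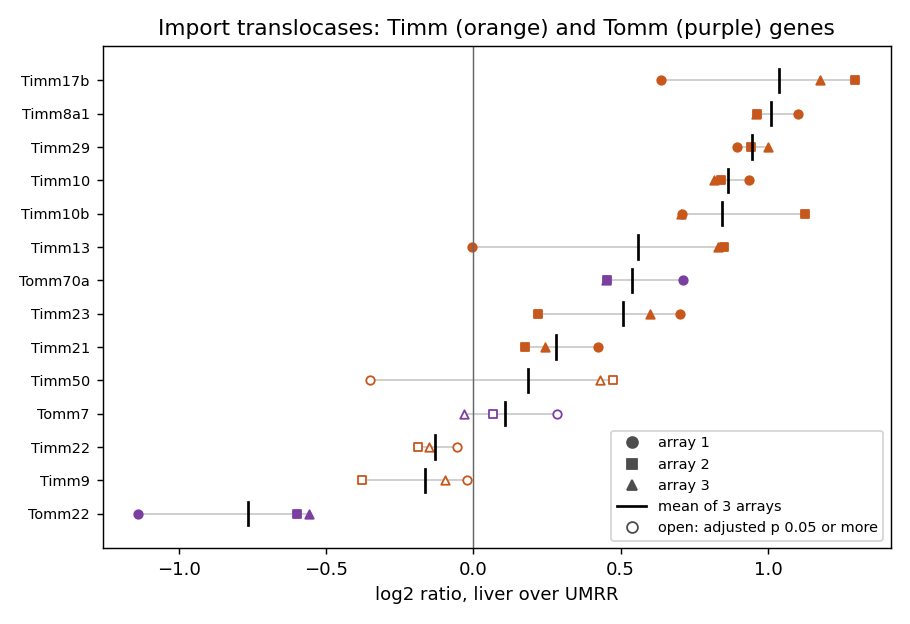
Log2 ratio of liver over UMRR on each array for the 11 Timm genes (orange) and 3 Tomm genes (purple) measured on all arrays, ordered by the mean (black bar), with filled symbols for genes past the test. Tomm22 stands alone on the left, and the circles of array 1 lie far to the left of the other arrays for Timm50, Timm13, Timm17b and Tomm22.

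Other calls ended under a different treatment of variance or zeros. Among ribosomal genes, only Mrpl10 and those named by the rule given below were followed singly. Of these, Mrpl33 (adjusted p = 0.0503), Mrpl2 (0.0745), Mrpl39 (0.0551) and Mrps25 (0.0697) did not pass without moderation. Further genes of the large subunit also lost their call without moderation, as the count in the closing section shows. Of the translocases, neither did Timm10b (0.0609), Timm13 (0.248), Timm17b (0.0735), Timm21 (0.107) and Timm23 (0.122). With exact zeros kept as ratios of 1, Timm17b (adjusted p = 0.0539), Timm13 (0.246), Timm21 (0.0889), Timm23 (0.103), Tomm22 (0.0780), Mrpl2 (0.0548), Mrpl10 (0.141) and Mrps25 (0.0503) did not pass. The mean of Mrpl10 was then 0.25, and Mrpl3 turned to 0.036, with probe 17595 in its mean. With the median probe, Timm13 did not pass (adjusted p = 0.0778). Mrps24, Mrpl12, Mrpl24, Mrps31, Mrps7, Timm8a1, Timm10 and Timm29 passed under each alternative that gave them a value.

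Across the 51 measured members, array 1 gave values below both other arrays for 20 members and above both for 27. Over all 5520 measured genes, array 1 was below both for 2242 and above both for 2384. The import genes held the widest gaps. Timm13, Timm50, Timm17b and Tomm22 were all lower on array 1, and the probes of each gene repeated this. For Timm50, the 2 measured probes stood at -0.40 and -0.30 on array 1, against 0.39 to 0.56 on arrays 2 and 3. Pearson's r across the 51 members, which are not independent replicates, was 0.79 for arrays 1 and 2, 0.82 for arrays 1 and 3 and 0.95 for arrays 2 and 3. Over all genes, whose ratios span a far wider range, it was 0.93, 0.94 and 0.98.

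**Figure D4:**
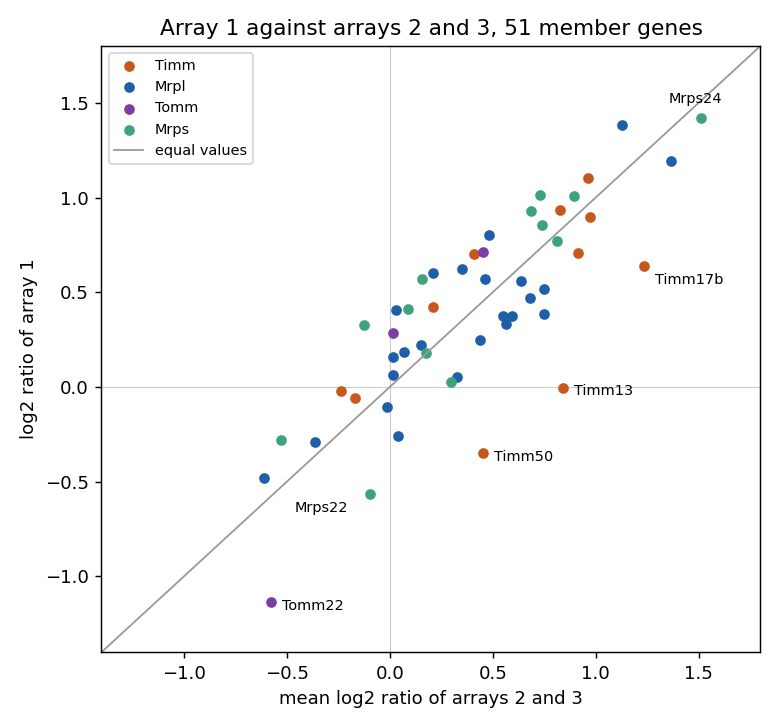
Log2 ratio on array 1 against the mean of arrays 2 and 3 for the 51 measured members, with the line of equal values. Timm17b, Timm13, Timm50 and Tomm22 lie farthest below the line.

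Of the 51 genes, 28 were measured by at least 2 probes and 23 by 1. From a gene's highest to its lowest probe the median gap was 0.24. Tomm22 was among the genes whose probes agreed, with means of -0.72, -0.76 and -0.81. The probes of Timm10, Timm17b and Mrpl12 also lay within 0.10 of each other. Mrpl15, a protein of the core of the large subunit, was the exception with probes more than 1 apart. Its probes 2714, 5760, 5844, 14367 and 15117 had means from 0.67 to 1.11. Probe 9753 stood at -1.41, -1.09 and -0.75 (-1.08 ± 0.33, n = 3) and lowered the gene's mean from 0.95 to 0.61. Mrpl15 was past the test either way (adjusted p = 0.00143 with probe 9753 and 0.000181 without it). The removal of such probes was chosen after seeing the data.

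After Mrpl15 the widest gaps between probes were in Mrps21 (0.98), Mrpl17 (0.95), Mrpl49 (0.85), Mrpl24 (0.76), Timm21 (0.58) and Timm13 (0.50). Probe 14946 of Mrps21 stood at 1.51, and its other 4 measured probes between 0.54 and 0.77. Mrpl17 had a probe at -0.037 beside 0.88 and 0.91. Mrpl49 had a probe at -0.64 beside 3 between -0.033 and 0.22. Probe 13373 of Mrpl24 stood at 1.69 beside 1.01 and 0.93, and with the median probe the gene's mean was 1.01 (adjusted p = 0.000568). In Timm21, 1 probe stood at -0.079 and the others at 0.42 and 0.51. The probes of Timm13 stood at 0.39, 0.40 and 0.89. In Mrps21, Mrpl17, Mrpl49, Mrpl24 and Timm21 the values of 1 probe did not overlap with those of the other measured probes, while in Timm13 they did.

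**Figure D5:**
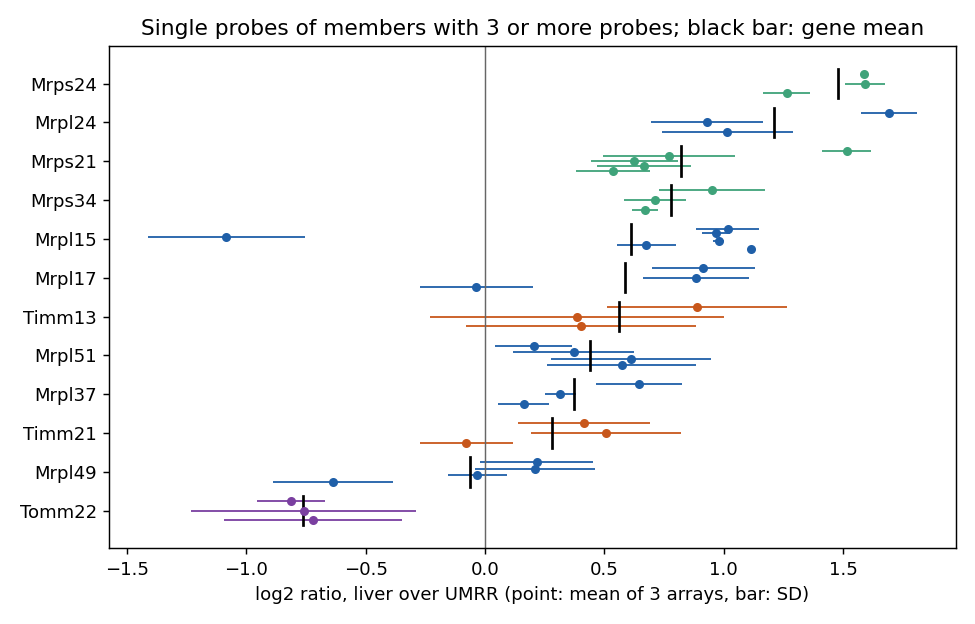
Mean log2 ratio of each probe over 3 arrays (point) with its SD (bar) for members with 3 or more measured probes, and the gene's mean (black bar). Probe 9753 of Mrpl15 lies at -1.08, apart from the gene's other 5 probes.

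The 15 members with no probe measured on all arrays entered no count above. Mrpl20, Mrps5, Mrps28, Timm8b and Tomm20 were listed at exact 0 on every array, so 1 of the TOM receptors has no value here. Of the other 10, 9 had ratios on 2 arrays. Mrpl41 had ratios on all 3, but split over its probes, which stood at 0.83 and 0.70 on arrays 1 and 2 and at 0.61 and 0.46 on arrays 2 and 3. Mrpl34 stood at 1.11 and 1.19 on arrays 1 and 2, and Mrpl55 at 1.19 and 0.90. Tomm40, the channel of the outer membrane, went from -0.31 on array 1 to 0.49 on array 3. Its relative Tomm40l stood at 0.64 and 1.11 on arrays 1 and 2, while Tomm34, a cytosolic helper, stood at -0.89 and -0.36. The channel therefore has no settled direction in these data. Timmdc1, which helps to build complex I and is no translocase, stood at 0.64 and 0.012. Mrpl21, Mrps11 and Mrps16 had values from 0.065 to 0.42.

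Genes that work beside the members were counted from lists written for this comparison. Measured were 9 of 26 listed partners of import, 6 of 15 proteases and quality control factors and 17 of 41 translation and assembly factors. Over all measured genes 30.1% were higher and 33.9% lower. Of 9 measured partners of import, 7 were higher (77.8%) and 0 lower, and the median was 0.60. They included Mtch2, an insertase of the outer membrane (1.23 ± 0.096, adjusted p = 8.1e-05), and Dnajc19, a helper of the import motor (1.22 ± 0.22, adjusted p = 0.000189). Of 6 mitochondrial proteases and quality control factors, 4 were higher (66.7%) and 1 lower (16.7%), and the median was 0.59. Oma1, a protease of the inner membrane, stood at 0.99 ± 0.031 (adjusted p = 0.000169), and Trap1, a chaperone of the matrix, at -1.85 ± 0.12 (adjusted p = 1.9e-05), or 3.61-fold lower. Trap1 was measured by 1 probe.

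Of 17 translation and assembly factors that work with the mitochondrial ribosome, 5 were higher (29.4%, near the 30.1% over all genes) and 3 lower, and the median was 0.091. Mrrf, which recycles the ribosome, was higher at 1.12 ± 0.17 (adjusted p = 0.000197), and Dhx30, an RNA helicase, was lower at -0.83 ± 0.32 (adjusted p = 0.0024). Dap3, a small-subunit protein whose symbol does not begin with Mrps, was lower at -0.57 ± 0.22 (adjusted p = 0.00578). Of 17 mitochondrial tRNA synthetases listed, 6 were on the array and measured. Among these 1 was higher (16.7%) and 2 lower (33.3%, near the 33.9% over all genes), and the median was 0.18. Ears2 stood at 0.70 ± 0.11 (adjusted p = 0.00107) and Wars2 at -0.80 ± 0.41 (adjusted p = 0.00534). Of 20 genes on the replication and transcription list, 7 were on the array and 3 were measured. Ssbp1, which binds single-stranded mitochondrial DNA, was lower at -0.83 ± 0.24 (adjusted p = 0.00128), as was the transcription factor Nrf1 (-0.36 ± 0.16, adjusted p = 0.0218). Esrra, a nuclear receptor, was higher at 0.49 ± 0.10 (adjusted p = 0.0048). Several of these calls ended under an alternative. Without array 3, Esrra (adjusted p = 0.0653) and Nrf1 (0.0583) did not pass, and neither did Nrf1 without array 2 (0.113). With exact zeros kept, Dhx30 (adjusted p = 0.0672), Wars2 (0.105), Dap3 (0.0704) and Nrf1 (0.0837) did not pass. Without moderation of the variance, Dhx30 (adjusted p = 0.0872), Wars2 (0.124), Ssbp1 (0.0626), Dap3 (0.0900) and Nrf1 (0.104) did not pass.

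The mitochondrial ribosome lay between the respiratory chain and the ribosome of the cytoplasm. The subunits measured for the chain are coded in the nucleus and made in the cytosol, not on the mitochondrial ribosome. Of 51 measured genes of that chain and of ATP synthase, 44 were higher and 2 lower, with a median of 0.96. The mitochondrial ribosome's median was lower than that by 0.68, 0.40 and 0.64 on arrays 1, 2 and 3. Of 58 genes on the list of cytoplasmic ribosomal proteins, 2 were higher and 49 lower, with a median of -0.87. The mitochondrial ribosome's median was above that by 1.18, 1.32 and 1.26 on the same arrays. This list was made by symbol and also holds Rps19bp1, a binding protein of Rps19 (-0.034, not past the test). Cox6b2 (1.88 ± 0.13) and Sdhb (1.81 ± 0.27) were the highest of the first list. In the second Rpl35a (1.65 ± 0.16) and Rpl23 (-1.33 ± 0.28) were farthest from 0 on either side, though pseudogenes close in sequence make single values of such genes uncertain. With exact zeros kept, Rpl23 did not pass (-0.98, adjusted p = 0.0510). These shifts are given as values, since lists were not tested against each other.

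Promoter sequences from RefSeq (build GRCm38.p6, 250 bases before to 50 after each start) were matched for 57 of the 66 genes, on 62 promoters. Mrpl4, Mrpl15, Mrpl38, Mrpl54, Mrps28, Mrps34, Timm21, Tomm7 and Tomm40l had no entry. Letters for factors known from nuclear genes of mitochondria were searched on both strands. GCGCATGCG, taken for NRF1, was in 6 of 62 promoters (9.68%), against 3.43% for genes measured on all arrays and 1.75% of all 32851 promoters. The 62 promoters include those of members not measured on all arrays, so the first of these shares is over an unlike set. CCGGAAG, taken for ETS factors such as GABPA, was in 23 (37.1%), against 15.6% and 8.86%. AAGATGGCG, taken for YY1, was in 4 (6.45%), against 2.55% and 1.4%. GGGCGG, taken for Sp1, was in 34 (54.8%), against 54.7% and 35.7%. TGACGTCA, taken for CREB, was in 2 (3.23%), against 3.12% and 1.79%. TCAAGGTCA, taken for ERR receptors, was in 1 (1.61%), against 0.215% and 0.423%. TATAAA was in 4 (6.45%), against 8.57% and 13.6%. None of these strings contains another, and a match is a description, not a bound site.

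Matches were also counted by group. CCGGAAG was in 13 of 43 ribosomal promoters (30.2%) and in 10 of 19 translocase promoters (52.6%). GCGCATGCG was in 5 ribosomal promoters and in 1 of a translocase. The 6 genes with GCGCATGCG, Mrpl10, Mrpl17, Mrpl32, Mrpl39, Mrps18b and Timm13, were all among the members higher in liver. The call of Mrpl32 was near the threshold (adjusted p = 0.0425), and that of Timm13 ended without array 2 or array 3. Members higher in liver held GCGCATGCG in 6 of 28 promoters, and measured members that were not higher in 0 of 19. For CCGGAAG the same counts were 10 of 28 and 6 of 19. They were 15 of 28 and 8 of 19 for GGGCGG, and 2 of 28 and 1 of 19 for AAGATGGCG. None of these differences was tested, and the same split was not counted over all measured genes. The promoters of Mrpl32, Mrpl39, Mrpl10 and Mrpl17 are shown because they hold the motif in the 150 bases before the start, and both measured TOM receptors because their ratios had opposite signs while each holds CCGGAAG. Each stretch ends at the base before the start, reads 5′ to 3′ on the gene's strand, and has in capitals the matches to GCGCATGCG or CCGGAAG on either strand. The stretch of Mrpl32 is chr13:14613038-14613187 (minus strand). The stretch of Mrpl39 is chr16:84735245-84735394 (minus strand). The stretch of Mrpl10 is chr11:97041432-97041581 (plus strand). The stretch of Mrpl17 is chr7:105811088-105811237 (minus strand). The stretch of Tomm22 is chr15:79670718-79670867 (plus strand). The stretch of Tomm70a is chr16:57121564-57121713 (plus strand).
Mrpl32: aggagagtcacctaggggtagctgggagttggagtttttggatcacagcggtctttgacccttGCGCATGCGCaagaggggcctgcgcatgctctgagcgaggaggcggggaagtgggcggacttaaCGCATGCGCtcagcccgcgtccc
Mrpl39: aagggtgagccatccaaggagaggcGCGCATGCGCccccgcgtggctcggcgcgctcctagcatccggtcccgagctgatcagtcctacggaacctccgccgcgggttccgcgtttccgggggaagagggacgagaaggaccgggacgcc
Mrpl10: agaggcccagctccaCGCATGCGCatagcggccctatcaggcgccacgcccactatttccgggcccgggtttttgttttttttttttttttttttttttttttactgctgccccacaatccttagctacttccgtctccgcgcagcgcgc
Mrpl17: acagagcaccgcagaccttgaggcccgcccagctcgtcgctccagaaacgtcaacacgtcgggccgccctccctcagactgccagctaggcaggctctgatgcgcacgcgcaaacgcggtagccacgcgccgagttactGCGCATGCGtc
Tomm22: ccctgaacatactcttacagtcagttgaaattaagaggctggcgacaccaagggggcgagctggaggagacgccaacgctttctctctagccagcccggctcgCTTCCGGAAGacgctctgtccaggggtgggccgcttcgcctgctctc
Tomm70a: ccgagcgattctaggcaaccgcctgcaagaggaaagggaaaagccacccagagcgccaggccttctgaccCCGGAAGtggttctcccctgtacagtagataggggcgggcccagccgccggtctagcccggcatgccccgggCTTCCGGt

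Capitals in the first 4 sequences mark GCGCATGCG, which Mrpl32 holds at separate places. In Tomm22 the matches on both strands run together, and in Tomm70a they stand apart. The ratios beside them were 0.34 for Mrpl32, 0.67 for Mrpl39, 0.52 for Mrpl10, 0.59 for Mrpl17, -0.76 for Tomm22 and 0.54 for Tomm70a. Mrps24, Mrpl12 and Mrpl24, which had the highest mean ratios, hold neither string in their windows.

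Of the 62 member promoters 20 (32.3%) overlapped the promoter window of another gene on the opposite strand. The shares were 16.9% for genes measured on all arrays and 10.8% of all promoters. The 62 again include members not measured on all arrays. Counted by gene the overlaps were in 18 of 57 members (31.6%), against 19.0% and 11.9%, since Mrpl2 has 3 promoters beside Klc4. Timm8b shares its window with Sdhd of complex II, Mrps11 with Mrpl46, Mrpl18 with the chaperonin gene Tcp1, and Mrpl32 with the proteasome gene Psma2. Such overlaps were in 14 of 43 ribosomal promoters (32.6%) and in 6 of 19 translocase promoters (31.6%). They were in 11 of 28 promoters of members higher in liver (39.3%) and in 3 of 19 of measured members that were not higher (15.8%), or in 9 of 26 and 3 of 18 genes. These differences were not tested, and the split by call was not counted over all measured genes.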

How the data were processed

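The deposited values are 1 log2 ratio of both dyes per probe and array, as processed by the authors; base 2 is assumed, and of the scanner, background correction and normalization nothing is given in the sources used here. Exact zeros (32.2%, 23.5% and 29.6% of the values of arrays 1, 2 and 3) were read as no ratio. Probes with a ratio on all 3 arrays (9910 of 16273) and 1 gene symbol in the platform annotation were averaged per gene, which gave 5520 genes. Over all of them limma 3.58.1 (R 4.3.3; lmFit, eBayes) fitted an intercept. It was tested against 0, two-sided, at a Benjamini-Hochberg adjusted p of 0.05. The fit was also run on simulated data with most genes unchanged, independent errors and no dye effect. That setting differs from these data, where 64.0% of genes passed. SDs are between arrays, whose number limits the precision, and scanner signals were not used here. The members and lists were chosen with earlier results of these data known; no list was tested as a list.

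Genes were named by a rule: all measured Timm and Tomm genes, the 4 highest and 4 lowest of each ribosomal subunit, members whose probes differed by 1 or more, and 2 genes per related list. Other members were named after their values were seen, Mrpl10, Dap3 and Nrf1 with full statistics. Motifs and the promoters shown were chosen after the data were seen. Alternatives changed the scaling, arrays, zeros, probes, variance model and threshold.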

Additional observations from a re-analysis of the deposited data

How the results depend on the processing

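Several counts and medians moved with the processing. With exact zeros kept as ratios of 1, the ribosome's median fell to 0.25 and that of the translocases to 0.21, their difference turned to 0.031, 5 of 20 translocase genes were higher and 0 lower, and 1 ribosomal gene was lower; Mrpl3 turned to 0.036 (adjusted p = 1). With probes measured on at least 2 arrays let in, the difference was 0.00032, the translocase median 0.42 and 2 translocase genes were lower. On genes with 1 measured probe, 7 of 17 ribosomal genes (6 large, 1 small) and 4 of 6 translocase genes were higher, 0 translocase genes lower, the medians were 0.24 and 0.68 and their difference -0.44. With the median probe the translocase median was 0.48. With unmoderated variance 2087 genes passed, 7 of the large subunit higher, 1 ribosomal gene lower, and 3 translocase genes higher and 0 lower. Leaving out 1 array gave 9 to 15 higher genes in the large subunit, 1 to 3 lower ribosomal genes, and a translocase median of 0.44 to 0.50 and a difference of -0.10 to -0.029. Of 647 values of the 48 named genes under alternatives, 589 kept direction and call, 49 lost the call, 3 gained it, 1 reversed and 5 uncalled values changed sign. The cause was not tested. No paired analysis was possible because the arrays form 1 group.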
